A study of Mus musculus with 4 samples.

Results

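The collagen genes of the embryonic mouse larynx were compared between *Shh-/-* and WT embryos, chain class by chain class. They were taken as every gene named *Col* with a type number, the letter a and a chain number, which gave 44 of the 46983 genes in the tables, and TPM (a gene's share of all transcripts in a library, counted per transcript length) was summed where a gene had several entries. Of the 44, 11 encode fibrillar chains, 9 network chains, 6 beaded-filament chains, 9 FACIT chains (fibril-associated collagens with interrupted triple helices), 4 transmembrane chains and 5 chains that belong to none of these classes. RNA came from E10.5 larynx tissue (32 to 35 somites), described in the study's methods as vocal fold tissue, as 2 *Shh-/-* pools, numbered 1 and 2, and 2 WT pools, numbered 4 and 6, with 3 larynxes in each pool. The mutant embryos carried the null allele *Shh tm1amc*, which the study kept on a Swiss Webster background, and the WT pools were Swiss Webster. The sample labels write the mutant genotype as heterozygous, while the series design and the study call the embryos *Shh-/-*, and that name is used here. Nothing in the labels states whether the pools of a genotype came from separate litters, so every p-value measures the spread between pools.

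Collagens are extracellular proteins built from chains that wind around each other in threes. Fibrillar chains assemble into the banded fibrils that give connective tissue its tensile strength, network chains form the sheets of the basement membrane, and beaded filaments of type VI collagen link cells to the surrounding matrix. FACIT chains decorate the surface of fibrils, and transmembrane chains are anchored in the cell membrane. In the larynx, collagens are made by the mesenchyme that condenses into cartilage, muscle connective tissue and the lamina propria, and by the epithelium and vessels that lay down basement membranes.

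The aligned sequence, computed from the ratio of coverage to FPKM, ranged from 1.10 gigabases in the first *Shh-/-* pool to 2.47 gigabases in the second. *Shh* itself was at 10.4 and 10.8 TPM in the mutant and 23.7 and 42.1 TPM in WT, with a log2 fold change of -1.49 (SE 0.28, limma adjusted p = 0.0895). *Ptch1*, the Hedgehog receptor and a direct target of the pathway, fell from 57.8 and 55.1 TPM to 12.9 and 13.8 TPM (log2 fold change -2.00, SE 0.12, limma adjusted p = 0.0319). Cell type markers also moved with genotype. Of all genes with a mean of at least 1 TPM, 38.0% were higher in both mutant pools and 22.7% were lower in both. Summed over its list, neuron markers were at 502.1 and 563.4 TPM in the mutant pools and at 127.8 and 89.0 TPM in WT, and all 8 were higher in both mutant pools. Markers of striated and cardiac muscle (142.4 and 198.9 against 49.8 and 59.1 TPM, 5 of 7 tested genes higher in both mutant pools), smooth muscle (425.6 and 418.0 against 229.1 and 235.9 TPM, 3 of 4) and endothelium (359.0 and 416.8 against 242.2 and 228.6 TPM, 7 of 8) were also higher in sum. The summed levels of mesenchyme markers were close (520.3 and 489.1 against 471.6 and 471.2 TPM), with 3 of 8 genes higher and 4 lower in both mutant pools. Within that list *Twist1* rose from 46.1 and 43.8 TPM to 147.0 and 125.0 TPM (log2 fold change 1.57, limma adjusted p = 0.0323), *Foxf2* fell from 20.2 ± 0.239 TPM (mean ± SD, n = 2) to 0.241 and 1.24 TPM (-3.67, limma adjusted p = 0.0383), and *Foxf1* was at 0.848 and 9.57 TPM against 72.3 and 64.6 TPM (-3.97, limma adjusted p = 0.0976). Epithelium markers (424.5 to 489.2 TPM over the 4 pools) and cartilage precursor markers (60.6 to 65.1 TPM) overlapped between genotypes in sum. So did neural crest and Schwann precursor markers (107.2 to 159.8 TPM), erythroid markers (10570 to 16790 TPM) and macrophage markers (3.65 to 5.49 TPM). The 6 erythroid genes all had log2 fold changes below 0, from -0.74 to -0.12. Higher and lower in both mutant pools were 3 and 4 of 8 epithelium genes (lowest *Foxa2* at a log2 fold change of -2.13 and *Nkx2-1* at -1.64), 5 and 1 of 7 neural crest genes (highest *Sox10* at 1.05), 0 and 2 of 5 cartilage precursor genes, 0 and 2 of 6 erythroid genes and 0 and 0 of 2 macrophage genes. The cartilage matrix genes *Acan* and *Matn1* were at most at 0.0215 TPM in any pool, and *Matn1* was listed at 0 in all 4 pools. How far these cell types account for the collagen levels below was not tested, and in whole tissue fewer cells of a type cannot be told apart from less RNA per cell.

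Of the 44 collagens, 32 had a mean of at least 1 TPM over the 4 pools and were tested. The test was limma on log2(TPM + 1) over all 16972 genes at that level, with Benjamini-Hochberg adjustment over all of them. At an adjusted p under 0.05, 1 collagen rose in *Shh-/-* larynx, against 95 of all tested genes (0.560%), and 0 fell, against 28 of all tested genes (0.165%). At an unadjusted p under 0.05, 14 of the 32 collagens were higher and 2 were lower, where 17.5% of all tested genes were higher and 7.22% lower. Both mutant pools lay above both WT pools for 21 of the 32 (38.0% of all tested genes) and below them for 3 (22.7%). The fold change was above 0 for 26 (58.3%). The median log2 fold change of the tested collagens was 0.37, with a range from -0.95 to 2.07, beside 0.08 over all tested genes.

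This median depended on the processing. With median centring it was 0.24, beside -0.05 over all tested genes. With quantile normalization it was 0.27, beside -0.01. Collagen transcripts were longer (median 5989 bases) and richer in G and C (median 56.5%) than those of all tested genes (2840 bases and 49.6%). With base composition and length corrected for in each library (natural splines on GC content and length), the median over collagens was 0.05, with 18 above 0 and 14 below, beside -0.01 over all tested genes. At a limma unadjusted p under 0.05 in either direction there were then 9 collagens, and 16 as deposited. Over all genes there were 3236 of 16887 with the correction and 4202 of 16972 as deposited. Counts of genes higher or lower in both mutant pools are of TPM as deposited. The corrected value is given beside the deposited one for the collagens that differed most or turned sign. The pools of one genotype differed by a median of 0.28 (mutant) and 0.23 (WT) on the log2 scale over the collagens, and by 0.19 and 0.18 over all tested genes.

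**Figure D1:**
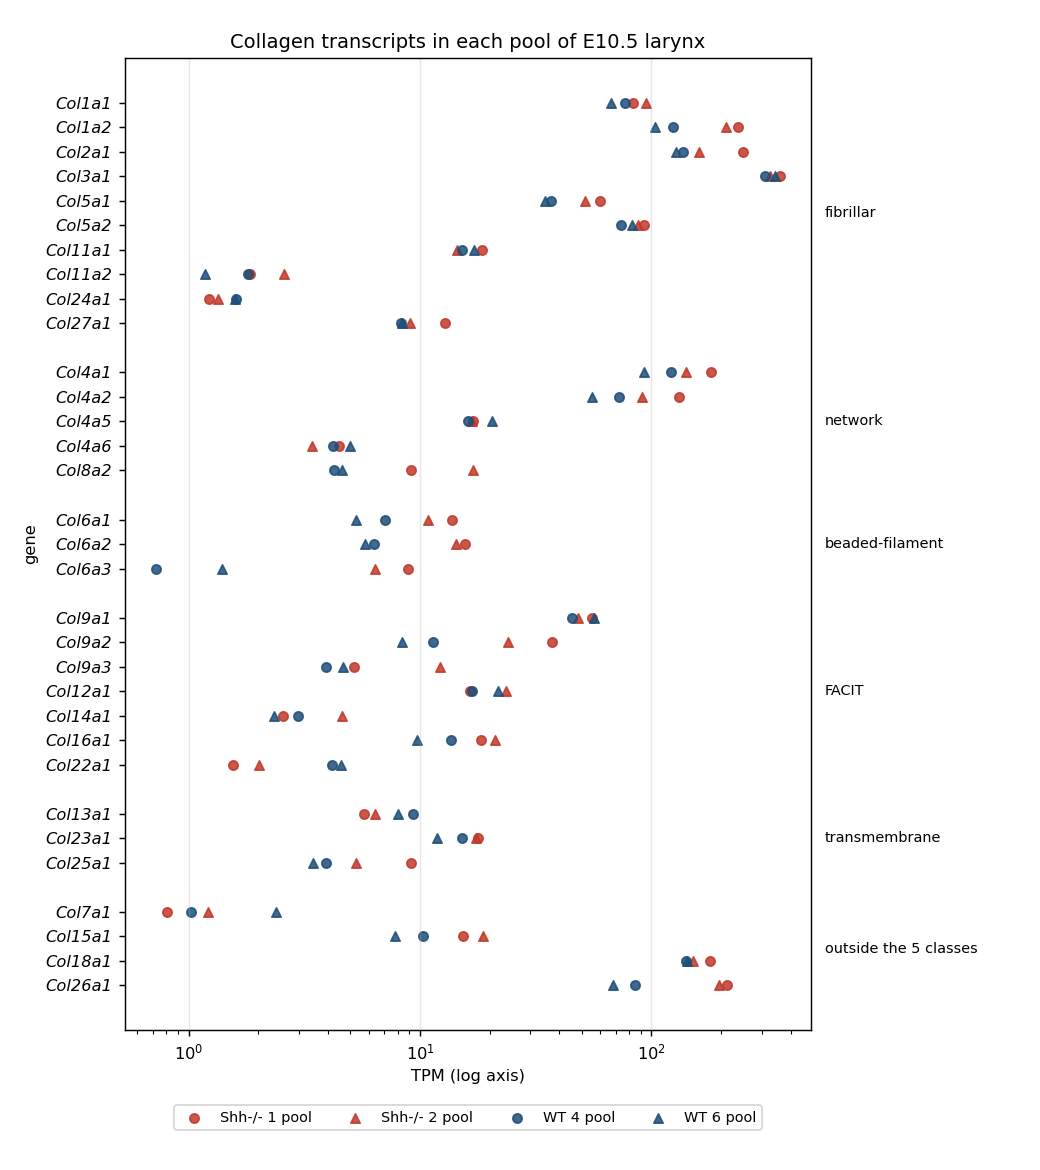
TPM of the 32 tested collagen genes (log axis) in the 2 Shh-/- pools (red) and the 2 WT pools (blue), grouped by chain class, with 1 symbol per pool. Col3a1 was the most abundant collagen in both genotypes and its pools overlapped, while the red symbols of Col6a3, Col9a2 and Col26a1 lie clear of the blue ones.

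The 12 collagens that were not tested were *Col5a3*, *Col4a3*, *Col4a4*, *Col8a1*, *Col10a1*, *Col6a4*, *Col6a5*, *Col6a6*, *Col19a1*, *Col20a1*, *Col17a1* and *Col28a1*. Their highest level in any pool ranged from 0.0603 TPM for *Col17a1* to 1.40 TPM for *Col8a1*, and 5 of them were listed at 0 in at least 1 pool. They include *Col10a1*, the network collagen of hypertrophic cartilage, *Col17a1*, the hemidesmosome collagen of stratified epithelium, and *Col4a3* and *Col4a4*, chains of the mature kidney basement membrane. *Col5a3*, a minor type V chain, was at 1.3 and 1.32 TPM in the mutant pools and at 0.374 and 0.206 TPM in WT, below the mean required for testing.

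Summed over all 44 genes, collagen transcripts made up 2076 and 1795 TPM in the mutant and 1382 and 1333 TPM in the WT, a ratio of means of 1.43. Every class sum was higher in both mutant pools. These sums are of TPM as deposited, without the correction for base composition and length. They weigh abundant genes most, so a higher sum does not mean that most genes of a class were higher. In the FACIT class 3 of the 7 tested genes were higher in both mutant pools and 1 was lower. The ratio was largest for the beaded-filament class (38.4 and 31.6 against 14.2 and 12.5 TPM, ratio 2.62) and smallest for the transmembrane class (32.7 and 29.3 against 28.4 and 23.3 TPM, ratio 1.20). Fibrillar chains were the bulk of the total at 1117 and 960.7 TPM in the mutant and 784.9 and 786.8 TPM in the WT, which was 53.8 and 53.5% of collagen transcripts in the mutant pools and 56.8 and 59.0% in WT. Their share was therefore lower in both mutant pools although their sum was higher. The share of beaded-filament chains was 1.85 and 1.76% in the mutant pools and 1.03 and 0.940% in WT. The sums of the network class (343.9 and 269.6 against 218.8 and 179.8 TPM, ratio 1.54), the FACIT class (136.7 and 136.6 against 99.5 and 109.0 TPM, ratio 1.31) and the chains outside the classes (407.4 and 367.1 against 236.6 and 221.3 TPM, ratio 1.69) stood between these. A comparison of 2 pools with 2 pools allows no exact permutation p below 0.333, and the sums are given as a description, with no test.

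**Figure D2:**
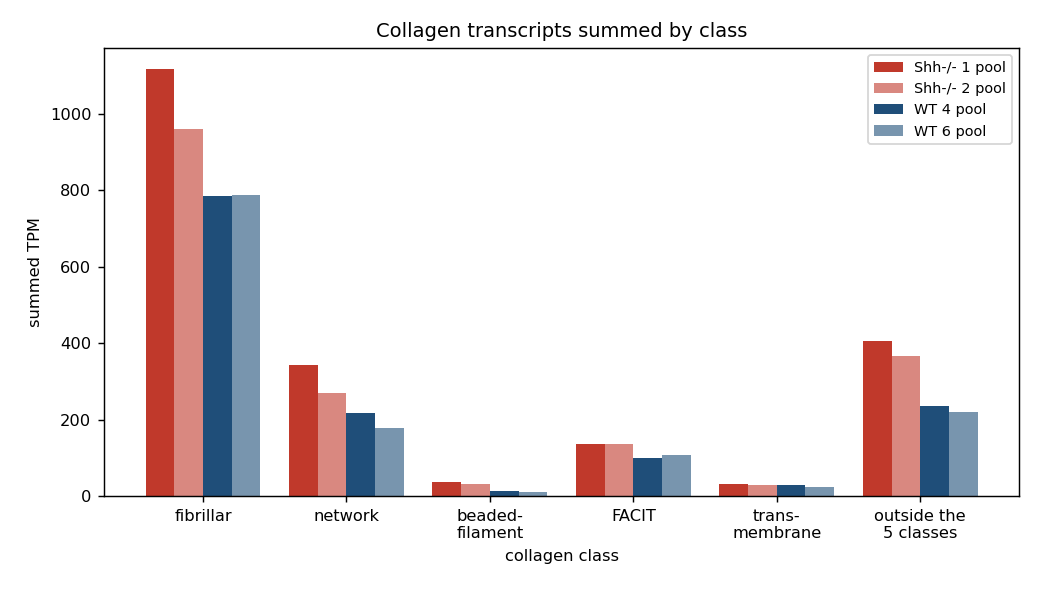
Summed TPM of each collagen class, as deposited (linear axis from 0), in the 2 Shh-/- pools (red) and the 2 WT pools (blue), 1 bar per pool. Both red bars stand above both blue bars in every class, from fibrillar chains (1117 and 960.7 against 784.9 and 786.8 TPM) to transmembrane chains (32.7 and 29.3 against 28.4 and 23.3 TPM).

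*Col26a1*, which encodes a secreted collagen-like glycoprotein outside the 5 classes, was the collagen that passed the test. It was at 212.4 and 196.2 TPM in the mutant pools and at 84.5 and 68.3 TPM in WT, means of 204.3 ± 11.4 and 76.4 ± 11.5 TPM (SD, n = 2 each). The mutant pools lay far above the WT pools, and the spread within each genotype was small beside the gap. *Col26a1* rose 2.67-fold in the means (log2 fold change 1.41, SE 0.14, limma adjusted p = 0.0422), and 0.97 with the correction for base composition and length (limma adjusted p = 0.0382). It moved from the seventh most abundant collagen in the WT to the fourth in the mutant. Its gene lies at chr5:136741759-136883209 on the minus strand of mm10. A short gene listed inside it on the same strand, *Gm20485*, was at 1.66 to 3.11 TPM. The call was lost with any one pool left out (log2 fold change 1.26 to 1.57, limma adjusted p 0.0997 to 0.149), and with all 4 pools it was lost with eBayes without trend (limma adjusted p = 0.0600) and with no filter on TPM (limma adjusted p = 0.146).

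Among the fibrillar chains, which build the load-bearing fibrils, 7 of the 10 tested genes were higher in both mutant pools and 1 was lower, beside 38.0% and 22.7% of all tested genes. After adjustment 0 of the 10 passed the test. At an unadjusted p under 0.05, 3 were higher and 0 lower, beside 17.5% and 7.22% of all tested genes. The fibrillar median log2 fold change was 0.32 as deposited. It was -0.11 after the correction for base composition and length, when 4 of the 10 were above 0 and 6 below. *Col3a1*, the chain of the type III fibrils of soft tissue, was the most abundant collagen of both genotypes at 359.2 and 326.1 TPM in the mutant and 309.2 and 343.3 TPM in the WT, and the pools overlapped (log2 fold change 0.07, and -0.20 with the correction). A gene of 141 bases listed inside *Col3a1* on the same strand, AC125167.1, was at 37.3 and 50.7 TPM in the mutant pools, 38.2 TPM in the WT 4 pool and 0.114 TPM in the WT 6 pool, so how reads were divided there is uncertain.

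The type I chains, which form the main fibrils of skin, tendon and bone, did not move alike. *Col1a2*, the alpha 2 chain, was at 237.4 and 210.4 TPM in the mutant pools and at 124.0 and 103.5 TPM in WT. Both mutant values lay well above both WT values (log2 fold change 0.97, SE 0.13, limma adjusted p = 0.0602), and the value was 0.60 with the correction (limma adjusted p = 0.0705). *Col1a1*, the alpha 1 chain, was at 83.1 and 95.2 TPM against 77.1 and 67.1 TPM, which did not overlap but lay close together. Its log2 fold change was 0.30 (SE 0.13, limma adjusted p = 0.228) and -0.15 with the correction. The ratio of *Col1a1* to *Col1a2* transcripts was accordingly 0.350 and 0.453 in the mutant and 0.622 and 0.648 in the WT, and it stayed lower in both mutant pools after the correction (0.339 and 0.441 against 0.634 and 0.673).

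Of the chains of type V collagen, which regulates the thickness of type I fibrils, *Col5a1* was at 59.7 and 51.8 TPM in the mutant pools and at 36.9 and 34.7 TPM in WT (a log2 fold change of 0.62, SE 0.12, limma adjusted p = 0.0957, 0.22 with the correction). *Col5a2* differed less, at 93.2 and 87.4 against 73.7 and 82.6 TPM (log2 fold change 0.21, SE 0.11, limma adjusted p = 0.303, 0.02 with the correction). The *Col5a1* to *Col5a2* ratio was 0.641 and 0.592 in the mutant and 0.500 and 0.420 in the WT. The gap was smaller after the correction (0.58 and 0.56 against 0.52 and 0.47). For type V it was the alpha 1 chain, and for type I the alpha 2 chain, whose mutant level stood further above WT. Cartilage fibril chains varied by pool. *Col2a1*, the main fibrillar chain of cartilage and also made by the notochord, was at 249.0 TPM in the first mutant pool and 161.0 TPM in the second, against 136.7 and 127.3 TPM in the WT pools. The value in the first mutant pool stood well above the other 3 pools, and the log2 fold change was 0.60 (SE 0.22, limma adjusted p = 0.189), with a range from 0.29 to 0.91 with 1 pool left out and 0.08 after the correction. *Col11a1*, the type XI chain of cartilage fibrils, overlapped between genotypes (14.5 to 18.5 TPM, log2 fold change 0.03, and -0.11 with the correction), as did its ratio to *Col11a2*. *Col11a2* (1.18 to 2.60 TPM), *Col24a1* (1.22 to 1.60 TPM) and *Col27a1* (8.27 to 12.8 TPM) had log2 fold changes of 0.37, -0.18 and 0.34, which were -0.15, -0.40 and -0.11 with the correction, and *Col24a1* was the chain lower in both mutant pools. The summed cartilage precursor markers, which include *Sox9* (26.5 and 25.5 against 28.6 and 23.0 TPM), overlapped between the genotypes, but single genes of the list did not. *Cnmd*, a cartilage glycoprotein, was at 2.0 and 1.74 TPM in the mutant pools and 0.0774 and 0.0705 TPM in WT, with a mean too low to be tested, and *Sox5* (7.04 and 7.20 against 9.56 and 8.24 TPM) and *Matn4* (means of 0.924 ± 0.139 and 1.64 ± 0.279 TPM, SD, n = 2 each) were lower in both mutant pools. The part of cartilage precursors in the values of *Col2a1* and the other cartilage chains was not tested.

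**Figure D3:**
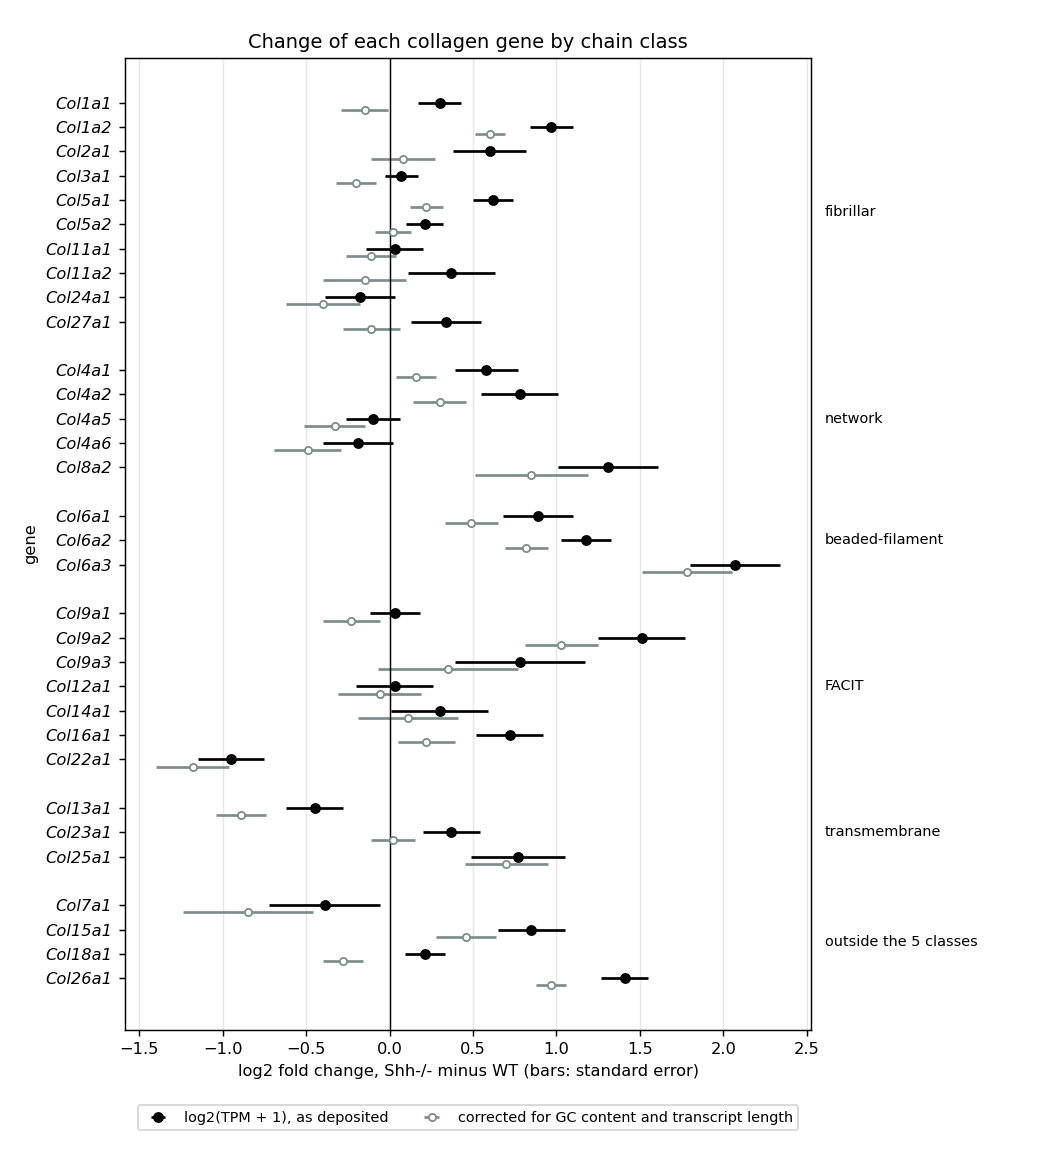
Log2 fold change (Shh-/- minus WT) of the 32 tested collagens by class, as deposited (filled points) and after the correction for base composition and length (open points), with standard errors as bars. The correction moved all 32 to the left, put 6 of the 10 fibrillar genes below 0, and left Col6a3 at 1.78 and Col26a1 at 0.97.

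In the network class, 3 of 5 tested genes were higher in both mutant pools and 0 lower, beside 38.0% and 22.7% of all tested genes. The class median was 0.58 on the log2 scale as deposited and 0.16 after the correction. *Col4a1* and *Col4a2* encode the chains of the basement membrane of nearly every tissue and lie head to head on chromosome 8, where their listed ends overlap. *Col4a1* was at 180.2 and 140.5 TPM against 121.0 and 92.7 TPM (log2 fold change 0.58, SE 0.19, limma adjusted p = 0.160), and *Col4a2* at 131.9 and 91.0 TPM against 72.3 and 55.3 TPM (log2 fold change 0.78, SE 0.23, limma adjusted p = 0.144). Neither gene overlapped between genotypes, the first mutant pool was the highest for both, and their corrected values were 0.16 and 0.30. The study's own RNA-seq comparison reported *Col4a2* as upregulated in the mutant. In the fit used here, which called 123 of all tested genes, *Col4a2* did not pass the adjusted threshold. The transcript ratio of *Col4a1* to *Col4a2* was 1.37 and 1.54 in the mutant pools and 1.67 and 1.68 in WT. The gap was smaller after the correction (1.39 and 1.58 against 1.65 and 1.63). Endothelium markers, made in vessels that these chains surround, moved in the same direction, as given above, and their part in these values was not tested.

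*Col4a5* and *Col4a6*, X-linked basement membrane chains that pair with each other in epithelia and smooth muscle, showed the opposite sign. *Col4a5* was at 17 and 16.9 TPM in the mutant and 16.1 and 20.4 TPM in the WT, and *Col4a6* at 4.48 and 3.42 against 4.22 and 5.0 TPM. Both overlapped between genotypes, with log2 fold changes of -0.10 (SE 0.16) and -0.19 (SE 0.21), and -0.33 and -0.49 with the correction. With 1 pool left out the deposited values ranged from -0.26 to 0.06 for *Col4a5* and from -0.34 to -0.03 for *Col4a6*. The largest value of the class was that of *Col8a2*, which encodes a short-chain collagen of Descemet's membrane and vessel walls. It was at 9.11 and 16.9 TPM in the mutant pools and 4.26 and 4.6 TPM in WT, with the second mutant pool the highest (log2 fold change 1.31, SE 0.30, limma adjusted p = 0.113, 0.85 with the correction). Its partner *Col8a1* was below 1 TPM in 3 of the 4 pools and was not tested.

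The beaded-filament class had the largest median of the 5 classes, 1.18 as deposited and 0.82 after the correction. All 3 tested genes were higher in both mutant pools, beside 38.0% of all tested genes. The products of *Col6a1*, *Col6a2* and *Col6a3* combine into the microfibrils of type VI collagen. All 3 were higher at an unadjusted p under 0.05, beside 17.5% of all tested genes. *Col6a1* was at 13.8 and 10.8 TPM in the mutant pools and 7.06 and 5.30 TPM in WT, with a log2 fold change of 0.89 (SE 0.21, limma adjusted p = 0.116). *Col6a2* was at 15.7 and 14.3 TPM against 6.35 and 5.80 TPM, with a log2 fold change of 1.18 (SE 0.15, limma adjusted p = 0.0595). *Col6a3* was at 8.85 and 6.38 TPM in the mutant pools and at 0.724 and 1.40 TPM in WT, with a log2 fold change of 2.07 (SE 0.27, limma adjusted p = 0.0595), the largest of any collagen, on a scale that compresses low values. In TPM its means, 7.61 ± 1.75 and 1.06 ± 0.478 (SD, n = 2 each), differed 7.17-fold. After the correction the 3 values were 0.49, 0.82 and 1.78 (limma adjusted p of 0.207, 0.0792 and 0.0781).

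The chains of type VI were not equally far apart. *Col6a3* transcripts were 0.564 and 0.446 of those of *Col6a2* in the mutant pools and 0.114 and 0.241 in WT. The ratio of *Col6a1* to *Col6a2* was 0.877 and 0.754 in the mutant and 1.11 and 0.914 in the WT, a small shift in the other direction. *Col6a4*, *Col6a5* and *Col6a6*, the later-described type VI chains, were at most at 0.140 TPM in any pool.

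RefSeq promoter sequence was searched to describe what these genes share. Of the 44 collagens, 35 matched a RefSeq entry of GRCm38.p6, with 38 promoters in all. The 250 bases before each start were searched on both strands for CCAAT (the CCAAT box), GGGCGG (the GC box), TATAAA (the TATA box) and GACCACCCA (the binding motif of the Hedgehog effectors GLI). The GC box was in 22 of the 38 collagen promoters (57.9%), against 32.7% of all 32851 promoters. CCAAT was in 34.2% against 33.8% and TATAAA in 13.2% against 12.4%. GACCACCCA was in none of the 38, beside 0.225% of all promoters, which says only that these letters are not in these windows. The promoters shown are those of 3 of the 6 collagens with a limma adjusted p under 0.1, given as examples of the windows searched. *Col26a1* matched no RefSeq entry, so its promoter was not searched. *Col1a2* and *Col9a2* had a listed gene start before the RefSeq start and are not shown. The 3 shown were chosen by adjusted p and not by fold change, and they include *Col6a3*, which had the largest log2 fold change of any tested collagen. Capitals mark the GC box on either strand, and each sequence is written 5' to 3' in the direction of the gene. The windows are chr1:90843972-90844221 on the minus strand for *Col6a3*, chr10:76623631-76623880 on the minus strand for *Col6a2* and chr2:27886175-27886424 on the plus strand for *Col5a1*.
Col6a3: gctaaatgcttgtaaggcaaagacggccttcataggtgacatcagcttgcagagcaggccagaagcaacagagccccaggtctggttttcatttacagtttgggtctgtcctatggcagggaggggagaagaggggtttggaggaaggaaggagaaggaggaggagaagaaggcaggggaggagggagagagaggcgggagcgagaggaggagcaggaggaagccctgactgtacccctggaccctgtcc
Col6a2: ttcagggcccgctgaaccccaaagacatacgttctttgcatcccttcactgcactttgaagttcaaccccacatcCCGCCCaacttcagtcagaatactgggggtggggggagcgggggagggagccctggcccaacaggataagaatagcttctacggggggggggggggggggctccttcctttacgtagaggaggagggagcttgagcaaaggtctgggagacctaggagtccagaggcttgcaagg
Col5a1: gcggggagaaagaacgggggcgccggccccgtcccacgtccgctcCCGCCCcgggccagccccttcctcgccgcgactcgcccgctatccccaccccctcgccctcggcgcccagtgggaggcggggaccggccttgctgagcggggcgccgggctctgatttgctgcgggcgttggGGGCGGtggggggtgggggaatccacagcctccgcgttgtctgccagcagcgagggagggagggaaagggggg
The *Col6a3* window held none of the 4 motifs, the *Col6a2* window a GC box that began 175 bases before the start, and the *Col5a1* window 2 GC boxes that began 205 and 73 bases before it. GC content was 57.2% in *Col6a3*, 59.2% in *Col6a2* and 76.4% in *Col5a1*.

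The median of the FACIT chains was 0.30 on the log2 scale, and 0.11 after the correction. In both mutant pools 3 of the 7 tested genes were higher and 1 lower, near the 38.0% and 22.7% of all tested genes. The type IX chains, which coat the type II fibrils of cartilage, were the most divided set. *Col9a2* was at 37.1 and 23.9 TPM in the mutant pools and at 11.4 and 8.37 TPM in WT, with a log2 fold change of 1.51 (SE 0.26, limma adjusted p = 0.0812) and 1.03 after the correction. *Col9a1*, its partner chain, was at 55.5 and 48.3 TPM against 45.6 and 56.7 TPM, which overlapped (log2 fold change 0.03, SE 0.15, limma adjusted p = 0.931, -0.23 with the correction). *Col9a1* transcripts were thus 1.5 and 2.02 times those of *Col9a2* in the mutant pools and 3.99 and 6.77 times in WT. *Col9a3* was at 5.20 and 12.2 TPM against 3.92 and 4.64 TPM, where the second mutant pool alone stood far above the others (log2 fold change 0.78, SE 0.39, limma adjusted p = 0.277, range 0.24 to 1.33 with 1 pool left out, 0.35 with the correction).

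**Figure D4:**
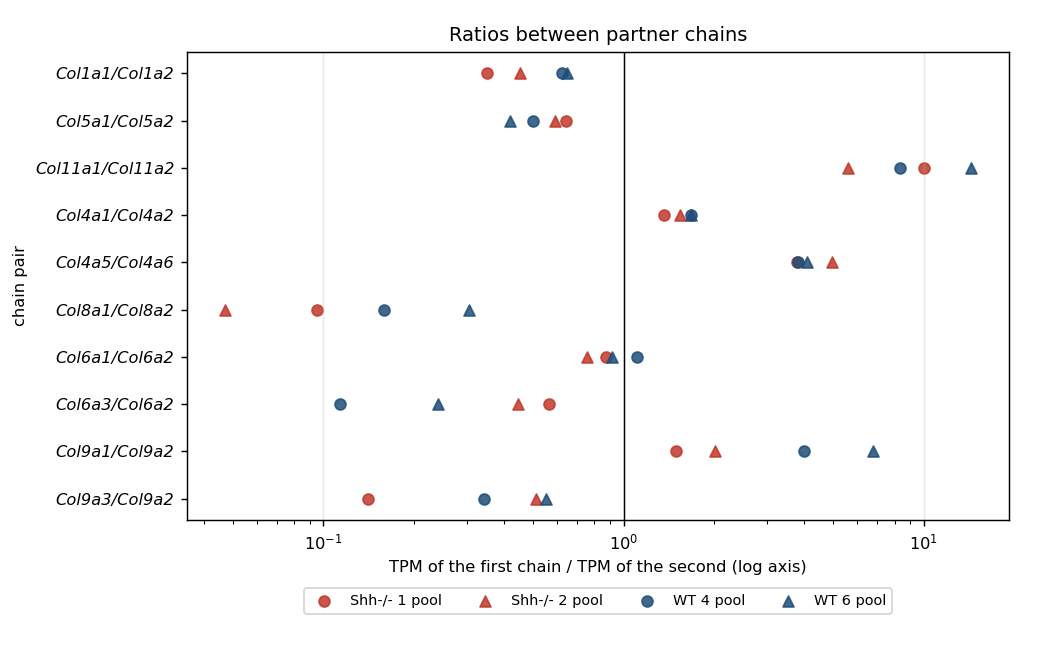
TPM of one chain divided by TPM of its partner (log axis) for 10 chain pairs in the 2 Shh-/- pools (red) and the 2 WT pools (blue). Red and blue do not overlap for Col1a1/Col1a2, Col5a1/Col5a2, Col4a1/Col4a2, Col8a1/Col8a2, Col6a1/Col6a2, Col6a3/Col6a2 and Col9a1/Col9a2, and they overlap for the other 3 pairs. Col8a1 was at only 0.68 to 1.40 TPM and was not tested.

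The other FACIT genes lay on both sides. *Col16a1*, a chain of fibril-associated networks in skin and cartilage, was at 18.3 and 21 TPM against 13.6 and 9.71 TPM (log2 fold change 0.72, SE 0.20, limma adjusted p = 0.139, 0.22 with the correction). *Col22a1*, a chain found at muscle-tendon junctions, was at 1.56 and 2.02 TPM in the mutant pools and 4.18 and 4.57 TPM in WT. It had the lowest fold change of any collagen, -0.95 (SE 0.20, limma adjusted p = 0.103), and -1.18 with the correction (limma adjusted p = 0.103). *Col12a1* and *Col14a1*, which bind type I fibrils, overlapped between genotypes at 16.4 to 23.5 and 2.33 to 4.61 TPM, with log2 fold changes of 0.03 and 0.30, and -0.06 and 0.11 with the correction.

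In the transmembrane class 2 of 3 tested genes were higher and 1 lower in both mutant pools, beside 38.0% and 22.7% of all tested genes. The class median was 0.37 on the log2 scale and 0.02 after the correction. *Col13a1*, a chain of cell-matrix and neuromuscular junctions, was at 5.73 and 6.39 TPM in the mutant and 9.33 and 8.04 TPM in the WT. Both mutant values were below both WT values (log2 fold change -0.45, SE 0.17, limma adjusted p = 0.194), and the gap widened with the correction (-0.89, limma adjusted p = 0.0869). *Col25a1*, a chain made by neurons and developing muscle, was at 9.16 and 5.29 TPM against 3.93 and 3.46 TPM (log2 fold change 0.77, SE 0.28, limma adjusted p = 0.185, range 0.42 without the first mutant pool to 1.12 without the second, 0.70 with the correction). Neuron markers and the summed markers of striated and cardiac muscle moved the same way. In that muscle list 5 of 7 tested genes were higher in both mutant pools. The other 2, *Myod1* (3.06 and 1.32 against 1.33 and 0.898 TPM) and *Myog* (1.58 and 1.70 against 1.09 and 1.87 TPM), overlapped between genotypes. The part of neurons and muscle in the *Col25a1* values was not tested. *Col23a1* was at 17.7 and 17.5 TPM against 15.2 and 11.8 TPM (log2 fold change 0.37, SE 0.17, limma adjusted p = 0.244) and 0.02 with the correction.

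Outside the 5 classes, *Col15a1* and *Col18a1* encode the basement membrane collagens whose ends are cut to give restin and endostatin. *Col15a1* was at 15.3 and 18.7 TPM in the mutant pools and at 10.3 and 7.77 TPM in WT (a log2 fold change of 0.85, SE 0.20, limma adjusted p = 0.113, 0.46 with the correction). *Col18a1*, the second most abundant collagen of the WT, differed less, at 178.9 and 150.9 TPM against 140.8 and 142.8 TPM (log2 fold change 0.21, SE 0.12, limma adjusted p = 0.316), and its sign turned with the correction (-0.28). The end of *Col18a1* overlaps *Slc19a1* on the opposite strand, at 13.7 to 17.8 TPM. *Col7a1*, the chain of the anchoring fibrils under stratified epithelium, overlapped between genotypes at 0.804 to 2.38 TPM (log2 fold change -0.39, and -0.85 with the correction).

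Genes that fold, cut, cross-link or bind collagen were taken from the same fit, and 0 of the 37 tested passed the adjusted threshold in either direction, beside 0.560% and 0.165% of all tested genes. At an unadjusted p under 0.05, 7 of the 20 genes of collagen folding and modification were higher and 1 lower, beside 17.5% and 7.22% of all tested genes. The median of that list was 0.28 as deposited and 0.00 after the correction. The lysyl hydroxylases *Plod1* and *Plod2*, which prepare lysines for cross-linking, stood at its ends. *Plod1* was at 36.4 and 37.9 TPM in the mutant pools and 23.1 and 19.3 TPM in WT (a log2 fold change of 0.79, SE 0.14, limma adjusted p = 0.0818). *Plod2*, which hydroxylates the telopeptides, was at 58.5 and 66.0 TPM against 83.6 and 103.9 TPM (log2 fold change -0.58, SE 0.15, limma adjusted p = 0.125), with both mutant pools below both WT pools.

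Of the 10 tested genes of procollagen cleavage and cross-linking, 5 were higher and 1 lower before adjustment (p under 0.05), and their median was 0.56 as deposited and 0.34 after the correction. Lysyl oxidases, which cross-link the chains, lay at both ends of this list. *Loxl2* was at 101.2 and 87.9 TPM in the mutant pools and 43.0 and 30.7 TPM in WT (a log2 fold change of 1.35, SE 0.19, limma adjusted p = 0.0633, 1.10 with the correction). *Lox* was at 1.73 and 4.17 TPM against 6.85 and 5.40 TPM (log2 fold change -0.92, SE 0.35, limma adjusted p = 0.200, range -1.38 to -0.46 with 1 pool left out), with the first mutant pool the lowest. The 7 tested collagen receptors had a median log2 fold change of 0.03. The largest positive value was that of *Mrc2*, an endocytic receptor of collagen fragments, at 47.4 and 42.7 TPM against 28.9 and 23.3 TPM (0.77, SE 0.15, limma adjusted p = 0.0945). The largest negative one was that of *Itga2*, a subunit of a collagen-binding integrin, at 0.746 and 1.33 TPM against 1.87 and 1.84 TPM (-0.50, SE 0.25, limma adjusted p = 0.274).

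**Figure D5:**
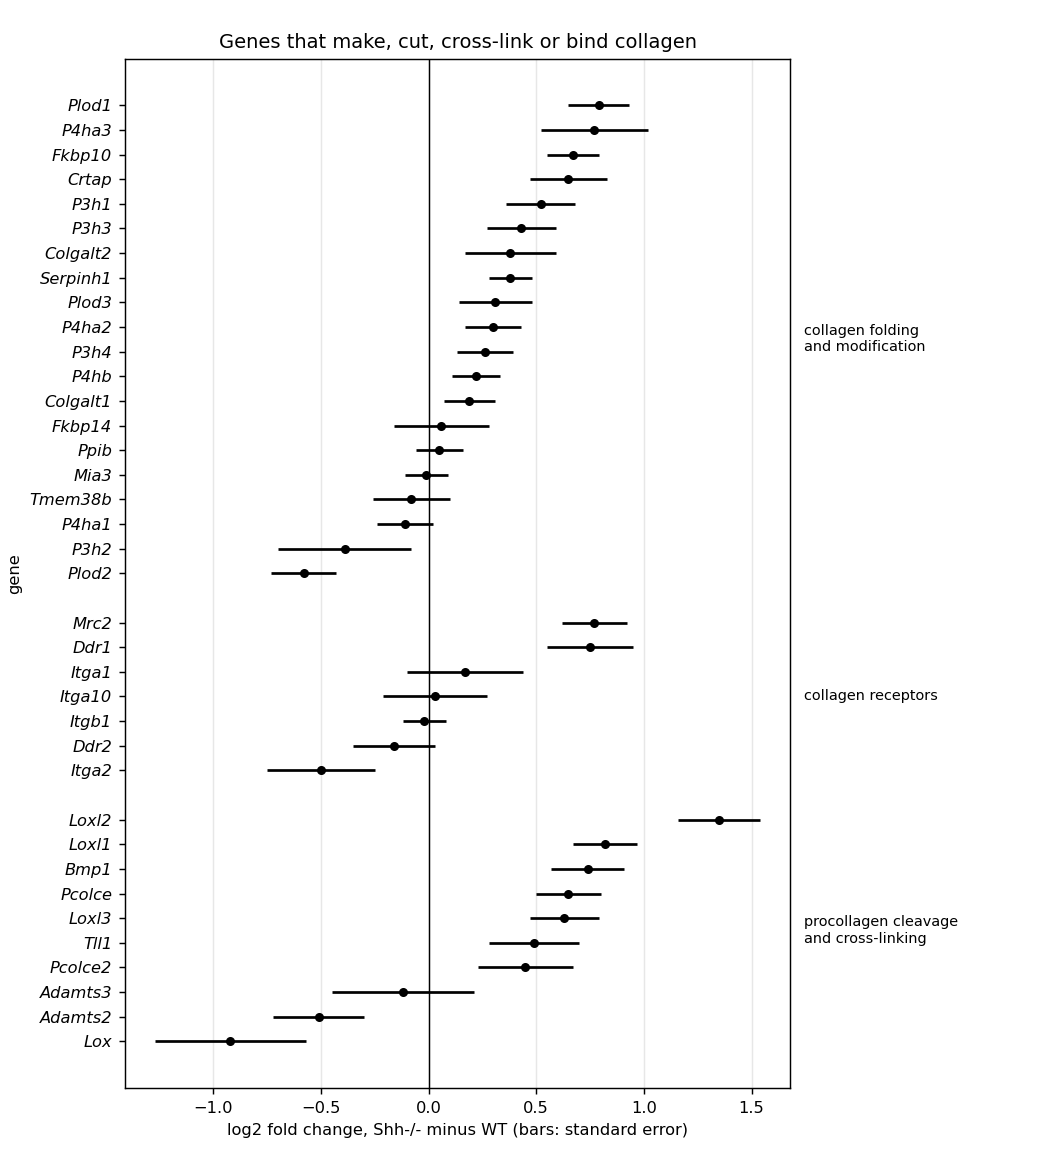
Log2 fold change (Shh-/- minus WT) of the 37 tested genes that fold, modify, cut, cross-link or bind collagen, sorted within each list, with standard errors as bars. Loxl2 (1.35) lies farthest to the right and Lox (-0.92) farthest to the left, and collagen receptors centre near 0.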

How the data were processed

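RNA-seq of 4 pools (2 *Shh-/-*, 2 WT; 3 larynxes each; 200 to 310 ng RNA, RNA integrity number 7.7 to 9) was analysed. The authors made stranded poly(A) libraries, sequenced them single-end, aligned reads to mm10 with HISAT2 2.1.0 and quantified genes with StringTie 1.3.6, per the labels, the processing notes and the study's methods. Whether StringTie was told the strand is not given in the sources used here. The deposited coverage (signal) is not normalized, the deposited FPKM is per transcript length and library size, and the deposited TPM sums FPKM to a fixed total in each pool.

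TPM was summed per gene ID. limma 3.58.1 in R 4.3.3 (eBayes with trend) compared *Shh-/-* with WT on log2(TPM + 1) over the 16972 genes whose TPM averaged 1 or more, with a Benjamini-Hochberg threshold of 0.05. Fold changes on this scale understate changes of low genes. TPM holds no counts, so no counting interval was given. GC content and length came from GENCODE M21 (16887 genes), and the correction used natural splines (5 degrees of freedom). Classes, partner and marker lists followed textbook knowledge. The members and lists were chosen with earlier results of these data known. *Cnmd* was listed as *Lect1*. Named partners are the largest rise and fall of each list. The fit was tested on simulated data. Alternatives were another pseudocount, filter, scaling or unit, other eBayes settings, an adjusted p of 0.10 and each pool left out.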

Additional observations from a re-analysis of the deposited data

How the results depend on the processing

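The number of all tested genes called, 123, was 69 with a pseudocount of 0.1, 0 with no filter on TPM (28524 genes tested, 5011 at an unadjusted p under 0.05), 858 at an adjusted p under 0.10 and 0 to 16 with a pool left out (16 without the WT 6 pool, 0 without any of the other 3), all with limma. The number of collagens called higher, 1, was 0 with no filter (14 at an unadjusted p under 0.05), 0 with eBayes without trend, 0 to 0 with a pool left out and 6 at an adjusted p under 0.10 (*Col26a1*, *Col6a2*, *Col6a3*, *Col1a2*, *Col9a2* and *Col5a1*), and no collagen was called lower under any alternative run. The limma adjusted p of *Col26a1* was 0.0329 to 0.0600 over the alternatives that kept all 4 pools and the filter, with 0.0600 from eBayes without trend, and 0.146 with no filter. The median log2 fold change of all tested collagens, 0.37, was 0.47 with a pseudocount of 0.1, 0.21 with no filter, 0.60 for a mean TPM of at least 5, 0.27 with quantile normalization, 0.24 with median centring, 0.55 with FPKM, 0.05 with the correction for base composition and length, and 0.32 to 0.54 with a pool left out. The fibrillar median, 0.32, was 0.22 with quantile normalization, 0.19 with median centring, -0.11 with the correction and 0.22 to 0.37 with a pool left out. The network median, 0.58, was -0.04 with no filter, 0.16 with the correction and 0.39 to 0.77 with a pool left out. The beaded-filament median, 1.18, was 1.29 with a pseudocount of 0.1, 0.49 with no filter, 1.03 for a mean TPM of at least 5, 1.03 with quantile normalization, 1.05 with median centring, 1.04 with FPKM, 0.82 with the correction and 1.11 to 1.24 with a pool left out. The FACIT median, 0.30, was 0.72 for a mean TPM of at least 5 and 0.12 (without the second *Shh-/-* pool) to 0.63 (without the first) with a pool left out. The transmembrane median, 0.37, was 0.02 with the correction and 0.21 (without the WT 6 pool) to 0.54 (without the WT 4 pool) with a pool left out. The values with no filter include the 12 collagens under 1 TPM. The median over all collagens rests on 25 genes for a mean TPM of at least 5 and on 29 with FPKM. Median centring shifts every gene equally. The median over all tested genes was 0.08 in the main run, -0.05 with median centring and -0.01 with quantile normalization. The cause of the remaining shifts was not tested. Of the values of single collagens under the alternatives, 406 kept sign and call, 26 uncalled values turned sign (8 of them with the correction) and 6, all of *Col26a1*, lost the call. No paired analysis was possible because the genotypes share no replicate number. The shallower first *Shh-/-* pool and the absence of counts limit the precision of collagens near 1 TPM.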
